A study of Schizosaccharomyces pombe with 6 samples.

Results

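The left end of chromosome II of fission yeast (Schizosaccharomyces pombe) is described here as the first 180 kb of the chromosome sequence. Its members were all probes, control spots excepted, whose annotated position lay in that stretch, and they numbered 492 of the 42707 probes on the array. Position alone, and no measured value, set which probes were members. The stretch itself was chosen with earlier results of these data known. The arrays measured Rad52 by chromatin immunoprecipitation (IP): IP DNA and input DNA were hybridised together in 2 dyes, and each value below is a log2 IP/input ratio, set so that the array's median is 0. The Δrad3 group held 3 arrays of cells with the rad3 gene deleted, and the WT group held 3 arrays labelled wild type. Both strains had the cdc25-22 mutation, which blocks entry into mitosis at high temperature. Cultures spent 4 h at 36.5 °C, were shifted to 25 °C with 6 mM hydroxyurea (HU), and were taken at 60 min. The controls thus carried the same allele, arrest and drug as the mutant. Without a mock IP, the levels include whatever DNA the procedure brings down unspecifically.

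Rad52 binds single-stranded DNA and loads the recombinase at broken or stalled replication forks. Rad3 is the ATR-family checkpoint kinase, and HU starves forks of nucleotides. In fission yeast, replication origins lie in intergenic islands rich in A+T, and in HU the Rad3 pathway restrains late origins. The chromosome ends hold repeats and heterochromatin beside the telomere, followed by subtelomeric genes of nutrient uptake and stress, and most subtelomeric origins are among the late ones.

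The first probe began at base 29534, so the outermost 29.5 kb, with its repeats, held no probe. The last probe ended at 179862, and the median spacing was 260 bp. The largest gap, 11253 bp between 91482 and 102736, left out most of a cluster of transporter genes. Averaged in 1-kb bins of at least 2 probes, the stretch gave 135 of 12065 bins, and in 10-kb windows it gave 14 of 1227. It held 23 A+T-rich islands, here windows of 1000 bp with at least 72% A+T that lay at least 50% outside coding sequence, of which 17 had probes. The sequences below are 200 bases each from the ASM294v3 forward strand, the first 3 being the most A+T-rich stretch inside 3 bins with a large strain difference (1.10, 1.11 and 1.09, Δrad3 minus WT) and the last lying in a bin with a difference of 0.08 (SE 0.25). Capitals mark the longest run without G or C.

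between SPBC1348.12 and ght7, chrII:37155-37354: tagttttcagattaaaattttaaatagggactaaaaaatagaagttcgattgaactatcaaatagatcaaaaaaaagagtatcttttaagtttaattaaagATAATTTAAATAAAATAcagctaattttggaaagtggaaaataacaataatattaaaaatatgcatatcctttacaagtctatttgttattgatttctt
between grt1 and SPBPB8B6.05C, chrII:52672-52871: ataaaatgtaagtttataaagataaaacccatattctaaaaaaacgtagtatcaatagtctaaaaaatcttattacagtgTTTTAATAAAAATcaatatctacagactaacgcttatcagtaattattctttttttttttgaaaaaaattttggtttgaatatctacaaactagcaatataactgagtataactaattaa
between aat1 and pfl7, chrII:116537-116736: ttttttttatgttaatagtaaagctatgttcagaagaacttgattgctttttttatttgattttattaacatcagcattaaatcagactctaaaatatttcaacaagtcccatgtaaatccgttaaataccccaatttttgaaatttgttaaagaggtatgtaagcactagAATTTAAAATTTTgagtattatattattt
inside the coding sequence of ght7, chrII:39265-39464: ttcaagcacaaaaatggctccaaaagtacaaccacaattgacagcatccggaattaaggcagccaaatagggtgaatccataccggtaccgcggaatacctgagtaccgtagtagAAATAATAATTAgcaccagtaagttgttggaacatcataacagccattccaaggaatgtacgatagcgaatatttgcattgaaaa

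The A+T content was 80%, 79.5% and 76.5% in the 3 intergenic sequences, in that order, and 59.5% in the coding one. Their longest runs of A and T were 17, 13, 13 and 12 bases. Of all 200-base stretches of chromosome II, 0.341% were at least as A+T-rich as the first and 79.3% were at least as A+T-rich as the coding one. Each intergenic sequence was picked as the most A+T-rich of its bin, so its high A+T content follows from the choice. These contents describe the printed sequences and say nothing on the strain difference.

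The strain labels were checked at rad3 in the input DNA. Its coding sequence has 25 probes, of which 9 failed to reach well above background on each Δrad3 array, against 0 on WT replicates 1 and 3. On the library labelled WT replicate 2, 24 of the 25 were not well above background, so that library goes against its label. The outer windows, the outer stretch, the counts of called bins and the chromosome ends are given with and without it. The island, A+T, probe-type, single-channel and gene-list values include it, as do most values of single bins and genes. Where values of all WT arrays are listed, they are in replicate order. It entered the WT group as labelled. Labels name an anti-Rad52 antibody and fragments of 400 to 500 bp for WT replicates 1 and 2, while WT replicate 3 and the Δrad3 arrays share another protocol text, with HU added 10 min after release. Per the labels every array had input in the 647 dye and IP in the 555 dye, although the series text speaks of reciprocal labelling, and levels therefore carry any bias of the dyes. Nothing says that replicates were separate cultures, so p-values measure the spread between these arrays, whose number limits the precision. Over the 492 probes, input was well above background for 98.8% to 99.8% on the Δrad3 arrays and 95.9% to 100% on the WT arrays. For the IP the shares were 96.5% to 99.2% on the Δrad3 arrays and 91.3% to 100% on the WT arrays.

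Rad52 IP/input at the outer edge of the measured stretch stood near the genome's median in Δrad3 and below it in WT, and further in the strains lay close together. Over all 135 bins the Δrad3 arrays averaged 0.10, 0.05 and 0.15, and the WT arrays -0.07, -0.08 and 0.01. The WT value of -0.08 belongs to the library labelled WT replicate 2. Set against the rest of the 3 chromosomes, the difference between strains was 0.12 (Δrad3 minus WT), or 0.10 without that library. It was 0.03 among the arrays that share 1 protocol text, which leave 1 WT array. It came from the outer part: over the first 50 kb the difference was 0.59, and over the rest 0.04.

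In 10-kb windows all 3 WT profiles were below 0 from 30 to 70 kb and above 0 in the next window, while the lowest Δrad3 value from 30 to 70 kb was -0.13. Of the 14 windows, 2 were below 0 on every Δrad3 array and 5 on every WT array, against 33.7% and 27.4% of all windows. At 30 to 40 kb the windows stood at 0.18, -0.08 and 0.39 in Δrad3, and at -0.36, -0.65 and -0.46 in WT. At 40 to 50 kb they stood at 0.08, -0.13 and 0.13 in Δrad3, and at -0.27, -0.90 and -0.45 in WT. The library labelled WT replicate 2 was the lowest of the 6 in both windows, and the groups did not overlap in either. At 50 to 60 kb the values were 0.16, -0.04 and 0.31 in Δrad3, and -0.40, -0.80 and -0.34 in WT. At 60 to 70 kb they were 0.20, 0.16 and 0.21 in Δrad3, and -0.18, -0.44 and -0.12 in WT. In the next window, at 70 to 80 kb, they were 0.29, 0.21 and 0.20 in Δrad3, and 0.18, 0.17 and 0.17 in WT, so the groups still did not overlap but differed by 0.06.

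**Figure D1:**
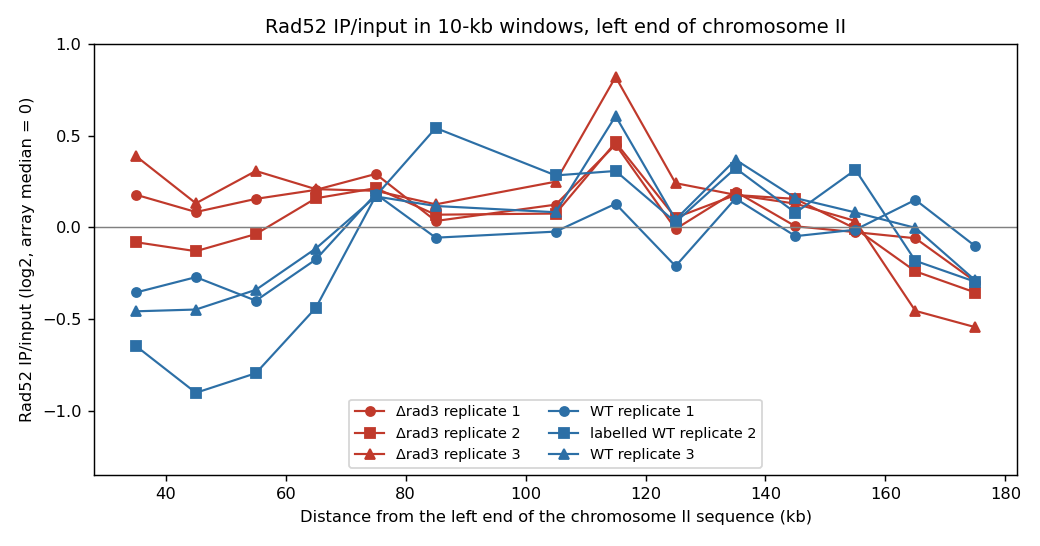
Mean log2 Rad52 IP/input in 10-kb windows against distance in kb from the left end of the chromosome II sequence, 1 line per array (Δrad3 red, WT blue, replicates by marker, windows without enough probes left out). The 4 windows from 30 to 70 kb have all Δrad3 arrays above all WT arrays, and the WT lines meet the Δrad3 lines at 70 to 80 kb.

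The differences in these 4 outer windows were 0.65 (SE 0.14), 0.57 (SE 0.17), 0.65 (SE 0.15) and 0.43 (SE 0.11). With the library labelled WT replicate 2 left out they were 0.57, 0.39, 0.51 and 0.34. By size of the difference, the first 3 ranked 7, 10 and 5 among the 1227 windows of the genome. None passed in limma after Benjamini-Hochberg adjustment over all windows (adjusted p = 0.491, 0.644, 0.491 and 0.577), and 0 of 1227 windows passed. At an unadjusted p under 0.05 limma counted 4 of the 14 windows, against 89 of 1227. Each slide carried 1 array of each strain, and with the slide as a block the adjusted p of limma were 0.190, 0.294, 0.181 and 0.393. With the block and without the library labelled WT replicate 2, 4 of the 14 windows passed, against 4.16% of all windows (limma adjusted p = 0.00024, 0.00393, 0.000316 and 0.0249, against up to 0.932 under other settings). That fit rests on 2 arrays a strain and 1 residual degree of freedom. Of the 14 windows, 5 (35.7%) had every Δrad3 array above every WT array, against 8.88% of all windows, and 0 had the reverse order, against 7.25% of all windows.

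The stretch from 29 to 70 kb was set apart after its values were seen, and its counts describe it. Its 37 bins averaged 0.16, -0.02 and 0.25 in Δrad3 (0.13 ± 0.14, SD, n = 3), and -0.29, -0.69 and -0.34 in WT (-0.44 ± 0.22, SD, n = 3). The difference was 0.57, and within slides 1, 2 and 3 it was 0.45, 0.67 and 0.60. It was 0.45 without the library labelled WT replicate 2, 0.47 among the arrays that share 1 protocol text, and 0.33 with normexp background correction. All 37 bins had a positive difference. In 17 (45.9%) every Δrad3 array lay above every WT array, against 6.96% of all bins, and without the library labelled WT replicate 2 this held for 19 (51.4%), against 12.4%. On all 3 WT arrays 29 of the 37 bins were below 0, against 21.9% of all bins, whereas 6 of 37 were below 0 on all Δrad3 arrays, against 26.1% of all bins.

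The bins with the largest differences lay in or beside intergenic DNA rich in A+T. No bin of the 135 passed in limma without the block (0 higher and 0 lower, against 0.00829% of all bins higher), and at an unadjusted p under 0.05 limma counted 20 higher and 1 lower, against 4.76% and 2.23% of all bins. With the slide block 6 of the 135 bins (4.44%) were higher in Δrad3, against 0.812% of all bins, and 0 were lower, against 0.00829% of all bins. With the block and without the library labelled WT replicate 2 there were 10, against 2.3% of all bins, and with arrays scaled to one spread 5, against 0.862%. All 6 bins that passed with the block on all arrays overlapped an A+T-rich island, and 5 of them lay in the outer stretch. Of all 135 bins, 50 overlapped an island and 37 lay in the outer stretch.

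The outermost of the 6, at 31001 to 32000 between the non-coding RNA gene prl11 and the pseudogene SPBC1348.11, stood at 1.01, 0.53 and 1.65 in Δrad3, and at -0.33, -0.46 and 0.75 in WT. Here the groups overlapped through WT replicate 3, and the limma adjusted p was 0.461 without the block and 0.019 with it. The bin at 37001 to 38000, between the transcription factor gene SPBC1348.12 and ght7, which encodes a hexose transporter, holds the first sequence above. It stood at 0.90, 0.35 and 0.88 in Δrad3, and at -0.21, -0.55 and -0.42 in WT, with no overlap and a difference of 1.10 (SE 0.22). The limma adjusted p was 0.129, and 0.0154 with the block.

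The bin at 42001 to 43000, between ght7 and the urea transporter gene SPBPB8B6.02C, stood at 0.46, 0.15 and 0.30 in Δrad3, and at -0.27, -1.13 and -0.89 in WT. Its Δrad3 level was modest and its WT level low, and the difference was 1.07 (0.89 without the library labelled WT replicate 2). The bin at 44001 to 45000, at the downstream end of SPBPB8B6.02C on the reverse strand, stood at 0.65, 0.27 and 0.99 in Δrad3, and at -0.30, -0.36 and -0.47 in WT. The bin at 52001 to 53000, between grt1, a transcription factor gene, and SPBPB8B6.05C, stood at 0.80, 0.30 and 1.47 in Δrad3, and at -0.48, -0.41 and 0.13 in WT. It had the largest difference of the 135 bins, 1.11 (SE 0.29), and holds the second sequence.

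The 1 called bin outside the outer stretch, at 116001 to 117000, lies between aat1, an amino acid permease gene, and pfl7, which encodes a DIPSY-family surface glycoprotein. It stood at 1.16, 1.09 and 1.92 in Δrad3, and at 0.06, 0.39 and 0.46 in WT, with 2 probes, so both strains were above the array median and Δrad3 was higher by 1.09 (SE 0.25). It holds the third sequence and was the highest of the 135 bins in Δrad3. Its limma adjusted p was 0.180, and 0.0228 with the block. Over the 6 bins and all settings tried, the limma adjusted p ran from 0.000335 to 0.985.

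**Figure D2:**
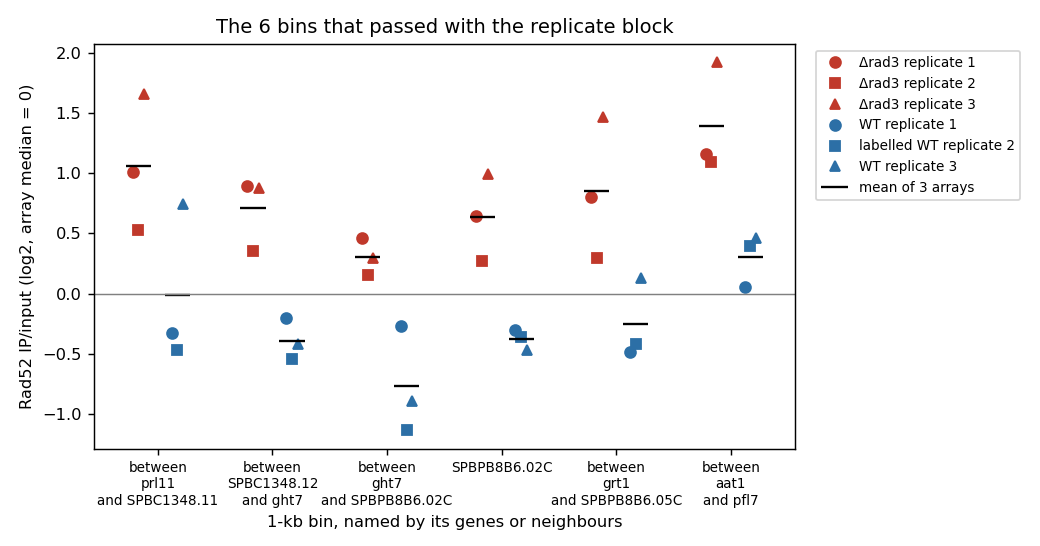
Log2 Rad52 IP/input of the 6 bins that passed in limma with the slide block, in order from the chromosome end, 1 point per array (Δrad3 red at left, WT blue at right, bars are means of 3 arrays). The groups overlap only in the outermost bin, between prl11 and SPBC1348.11.

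Within the outer stretch the strains differed most over the A+T-rich islands, and there the islands stood further above the other bins on each Δrad3 array than on any WT array. The 19 outer bins that overlap an island averaged 0.37, 0.11 and 0.53 in Δrad3, and -0.28, -0.71 and -0.28 in WT. The other 18 outer bins averaged -0.07, -0.16 and -0.03 in Δrad3, and -0.31, -0.67 and -0.41 in WT. Islands thus exceeded other bins by 0.43, 0.26 and 0.56 on the Δrad3 arrays, and by 0.03, -0.04 and 0.13 on the WT arrays, without overlap. The bins without an island were still higher in Δrad3, and all 18 had a positive difference. Over the genome's 771 annotated island bins the means were 0.39 in Δrad3 and 0.16 in WT, and in 23.2% of them every Δrad3 array lay above every WT array, against 14 of the 19 here. In the outer island bins they were 0.33 ± 0.21 in Δrad3 and -0.42 ± 0.25 in WT (SD, n = 3 each).

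All 7 measured islands between 29 and 70 kb had every Δrad3 array above every WT array, with differences of 0.66 to 1.15, against 26.1% of the 326 measured islands of the annotated genome. The island between ght7 and SPBPB8B6.02C had the largest, with 0.45, 0.15 and 0.37 in Δrad3, and -0.27, -1.28 and -0.94 in WT over 4 probes. The island beside SPBPB21E7.05 had the smallest, with 0.33, 0.22 and 0.55 in Δrad3, and -0.17, -0.60 and -0.12 in WT. Of the 10 islands further in, 8 were higher in Δrad3 by mean, and the arrays of the groups failed to overlap in 1, the island between pfl7 and the transporter gene abc3, at 0.56, 0.28 and 0.52 in Δrad3, and -0.24, 0.25 and 0.19 in WT. In these inner islands WT was above the median: their 31 bins averaged 0.32, 0.38 and 0.63 in Δrad3, and 0.00, 0.28 and 0.47 in WT.

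**Figure D3:**
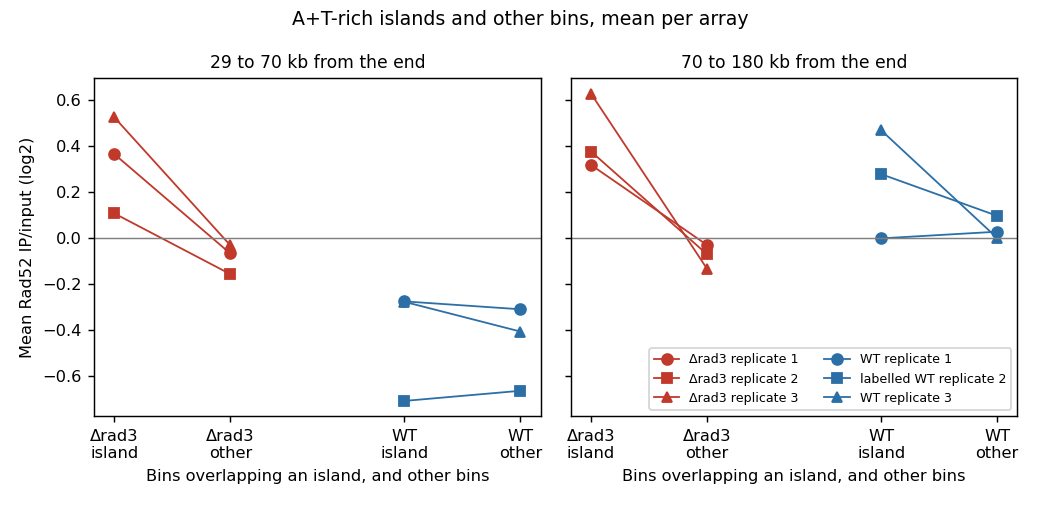
Mean log2 Rad52 IP/input over bins that overlap an A+T-rich island and over other bins, 1 line per array, for the bins 29 to 70 kb and 70 to 180 kb from the end (Δrad3 red at left, WT blue at right). In the outer panel the Δrad3 lines slope down from islands to other bins and the WT lines are nearly flat and lower.

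Bins richer in A+T had the larger differences between strains. Across the 37 outer bins the Pearson correlation of the difference with A+T content was 0.79, and across the 98 inner bins it was 0.58. Among bins without an island it was 0.35 over 18 outer and 0.37 over 67 inner bins, and among island bins 0.82 over 19 outer and 0.41 over 31 inner bins. On single arrays the outer correlation was 0.77, 0.75 and 0.74 in Δrad3, and -0.06, 0.18 and 0.39 in WT. Neighbouring bins share arrays and DNA fragments, so these values are descriptions without a test.

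**Figure D4:**
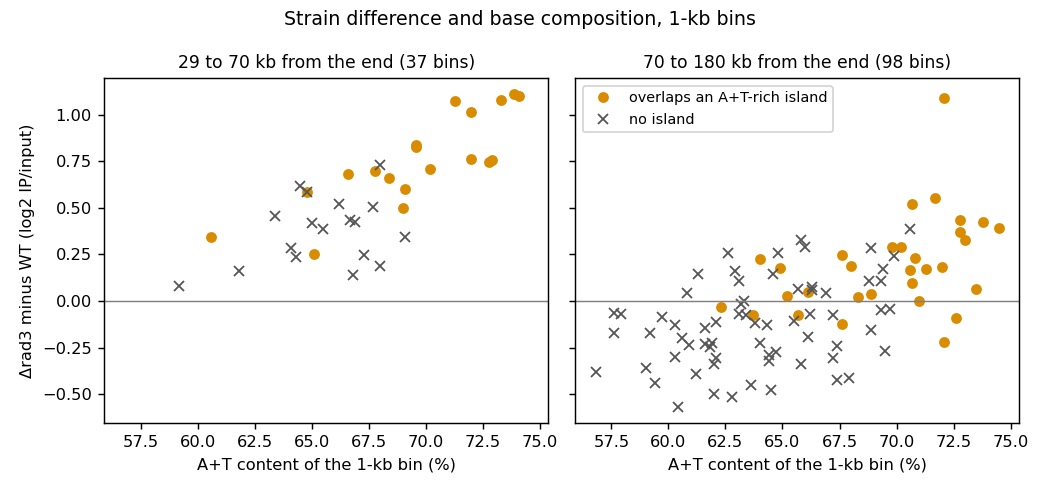
Difference between strains (Δrad3 minus WT, log2 IP/input) against A+T content of each 1-kb bin, for 37 outer and 98 inner bins, with bins that overlap an island as filled points and others as crosses. All outer points lie above 0, and inner points without an island lie on both sides of it.

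By the type of sequence under the probe, the difference was larger at intergenic than at coding probes. In the outer stretch the 83 intergenic probes averaged 0.30, 0.14 and 0.47 in Δrad3, and -0.30, -0.66 and -0.18 in WT. The 54 coding probes there averaged -0.11, -0.25 and -0.13 in Δrad3, and -0.26, -0.74 and -0.57 in WT, so the difference was 0.68 at intergenic and 0.36 at coding probes. The 3 outer probes in introns differed by 0.87. The 10 probes between convergent genes differed by 0.85, the 21 between divergent genes by 0.72 and the 52 between tandem genes by 0.64. Further in, the 155 coding probes differed by -0.14 and the 195 intergenic ones by 0.09.

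A bin counted as enriched where limma gave an adjusted p under 0.05 against the array median and the mean log2 was at least 0.5. In Δrad3 6 bins were enriched, against 1.86% of all bins, and in WT 3 bins, against 3.12% of all bins, with 0 in both. With the slide block there were 18 in Δrad3, against 5.63% of all bins, and 6 in WT, against 6.95%. Of the 6 found without the block, 2 lay in the outer stretch (beside prl11, and between SPBC1348.12 and ght7), and the others were the bin between aat1 and pfl7, the adjoining bin at pfl7, the bin between SPBPB10D8.03 and SPBPB10D8.04C, and that between amf1 and SPBC1683.04. The bin of pfl7 stood at 0.74, 1.03 and 1.40 in Δrad3, and at 0.07, 0.32 and 1.11 in WT. The WT bins were at pcl1, an iron transporter gene, and in a pair of bins between mug14 and the phosphate transporter gene pho841. The bin at pcl1 stood at 0.77, 0.16 and 0.41 in Δrad3, and at 1.03, 0.38 and 0.93 in WT, and it overlapped no island. A low input signal also raises a ratio. At pcl1 the WT input, centred on each array's median, stood at -1.27, -1.11 and -0.29. Between aat1 and pfl7 the Δrad3 input stood at -1.81, -0.30 and -1.33, and at pfl7 at 0.74, 1.05 and 0.51. Over the remaining enriched bins the mean input of the enriched strain ran from -0.44 to 0.12. The IP signal alone was not tested for single bins. Leaving out single arrays gave 1 to 12 enriched bins in Δrad3 and 0 to 10 in WT, and leaving out the library labelled WT replicate 2 gave 12 in Δrad3 and 1 in WT. Among the 10 highest bins of each strain, 10 in Δrad3 and 5 in WT overlapped an island, against 50 of the 135 bins. In the outer stretch, which held 37 of the 135, lay 4 of the 10 in Δrad3 and 0 in WT, and 3 bins were shared.

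Further in, from 70 to 180 kb, the strains were close, and the innermost windows leaned the other way. The 98 bins averaged 0.09 ± 0.02 in Δrad3 and 0.11 ± 0.08 in WT (SD, n = 3 each). The highest window, at 110 to 120 kb around aat1 and pfl7, stood at 0.45, 0.46 and 0.82 in Δrad3, and at 0.13, 0.31 and 0.61 in WT, with overlap. From 150 to 180 kb the bins averaged -0.13, -0.20 and -0.32 in Δrad3, and 0.01, -0.06 and -0.07 in WT. In this last stretch 4 of 30 bins (13.3%) had every Δrad3 array below every WT array, against 6.3% of all bins.

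Of the 7 bins of that kind in the 180 kb (5.19%), the lowest difference was at 169001 to 170000 in SPBC1683.12, which encodes a nicotinic acid transporter. That bin stood at -0.54, -0.64 and -0.80 in Δrad3, and at 0.01, -0.19 and -0.09 in WT, a difference of -0.57 (SE 0.20) that did not pass in limma (adjusted p = 0.585, and 0.271 with the block). The others lay in or beside cha4 (a transcription factor gene), pho841, thi7 (a transporter gene), frp1 (a ferric-chelate reductase gene), fmd2 with dea2, and abc3, with differences of -0.45 to -0.23. None of the 7 overlapped an island.

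Genes were averaged from the same probes as the bins, so what they show by position is no separate support. Of 55 protein-coding genes annotated in the 180 kb, 37 had at least 2 probes, and with 3 pseudogenes and 61 non-coding RNA genes 101 were measured. In limma 0 passed in either direction, against 0 of 8204 genes, and with the slide block 0 passed, against 0.0488% of all genes higher. Without the block and at an unadjusted p under 0.05, there were 10 higher and 1 lower in Δrad3 of the 101, against 4.84% and 2.28% of all genes. In the outer stretch all 12 measured coding genes and pseudogenes had a positive difference, with a median of 0.41, and the other 28 had 8 positive ones and a median of -0.13. The median over all 8204 genes was 0.00. In 4 of the 12 every Δrad3 array lay above every WT array, against 7.06% of all genes. The non-coding RNA genes, read from the same probes, had 11 of 11 positive in the outer stretch (median 0.43) and 31 of 50 further in (median 0.10). Some of them are not separate measurements: SPNCRNA.4532 and SPNCRNA.4533, on opposite strands, had identical values (difference 0.72). The outer stretch was set apart after its values were seen, so these counts describe it.

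The highest difference of a coding gene was at SPBPB21E7.10 (61496 to 62126), which encodes an uncharacterized protein. It stood at 0.77, 0.54 and 0.85 in Δrad3, and at -0.16, 0.25 and -0.45 in WT, a difference of 0.84 (SE 0.21) with a limma adjusted p of 0.414. It overlaps SPBPB21E7.11 on the other strand (0.55), and an array cannot tell DNA of the 2 genes apart. The gene eno102, which encodes an enolase, stood at -0.04, 0.04 and -0.11 in Δrad3, and at -0.27, -0.53 and -0.76 in WT. The transcription factor gene SPBC1348.12 stood at -0.22, -0.28 and 0.13 in Δrad3, and at -0.41, -0.60 and -0.81 in WT. Both genes were thus near or below the median in Δrad3 and lower in WT, without overlap. For fex2, a fluoride export channel gene, the difference of 0.57 fell to 0.08 without the library labelled WT replicate 2, which stood at -1.77 with 2 probes. The largest difference of a non-coding RNA gene, 1.09 at SPNCRNA.4570, came from the same 2 probes as the bin between aat1 and pfl7.

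Transporter, permease and channel genes are the main group of known function here, and 12 of 17 were measured. They were listed by these words in the annotated product, which leaves out abc3 (difference 0.03). Of these, 3 had a positive difference, the median was -0.16, and 3 had every Δrad3 array below every WT array, against 6.5% of all genes. The 28 measured coding genes and pseudogenes from 70 to 180 kb had 8 positive differences, a median of -0.13, and likewise 3 in that order. All the positive ones lay in the outer stretch, among them the transporter gene ght7 and the channel gene fex2 (0.35 and 0.57). Whether function matters apart from position was not tested. The nicotinic acid transporter gene SPBC1683.12 stood at -0.50, -0.48 and -0.84 in Δrad3, and at 0.08, -0.19 and -0.16 in WT. The phosphate transporter gene pho841 stood at 0.06, -0.05 and 0.10 in Δrad3, and at 0.37, 0.31 and 0.41 in WT. Neither passed in limma (adjusted p = 0.574 and 0.723). For the cysteine transporter gene SPBPB10D8.01 the difference of -0.44 was -0.17 without the library labelled WT replicate 2, which stood at 0.93. The isocitrate lyase gene icl1, of the glyoxylate cycle, stood at -0.35, -0.46 and -1.12 in Δrad3, and at 0.01, -0.58 and -0.47 in WT, with overlap, and the uridine ribohydrolase gene urh1 at -0.13, 0.03 and 0.11 in Δrad3, and at 0.00, 0.58 and 0.48 in WT. The remaining lists were small: the glycoprotein gene pfl7 differed by 0.09, the iron reductase gene frp1 by -0.02, and 2 reductase and dehydrogenase genes had a median of -0.10. No transfer, ribosomal, small nuclear or small nucleolar RNA gene is annotated in the 180 kb.

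The channels behind the ratio were examined on their own. In the input DNA the 4 outer windows differed between strains by 0.14, 0.21, 0.20 and 0.22, each with a limma adjusted p of 1.00. With the slide block these p were 0.432, 0.0844, 0.115 and 0.0858 (limma, adjusted). Within slides 1, 2 and 3 the input differed by 0.21, 0.20 and 0.23 at 40 to 50 kb, by 0.26, 0.12 and 0.23 at 50 to 60 kb, and by 0.24, 0.14 and 0.27 at 60 to 70 kb, so it was higher in Δrad3 on every slide there. At 30 to 40 kb slide 2 was the exception, at -0.02. With the block 0 of the 14 input windows passed in limma, against 0.407% of all windows. In the IP the differences were 0.77, 0.76, 0.84 and 0.63, with limma adjusted p of 0.328, 0.282, 0.160 and 0.271. With the block the IP gave 0.0835, 0.0629, 0.0329 and 0.0685 (limma, adjusted), so 1 of the 14 windows passed, against 0.326% of all windows. At 40 to 50 kb the IP signal, centred on its array median, stood at -0.12, -0.30 and -0.38 in Δrad3, and at -0.68, -1.25 and -1.16 in WT. The input signal there stood at -0.19, -0.14 and -0.47 in Δrad3, and at -0.40, -0.34 and -0.70 in WT. Input was thus lowest on the third replicate of each strain, and the IP separated the strains. In 13 of the 14 windows input was higher in Δrad3 by mean, and in 1 the groups did not overlap, against 2.36% of all windows, with 0 in the reverse order, against 1.22%. In 6 of the 135 bins every Δrad3 input value lay above every WT one, against 1.07% of all bins, and 0 had the reverse order, against 1.06%. Of the 135 bins 0 differed in input in limma without the block, also at an unadjusted p under 0.05. With the block the lowest limma adjusted p was 0.899. Unadjusted, the limma p with the block fell to 0.0105, at 87001 to 88000, where input was 0.35 higher in Δrad3. The bins under 0.05 by that unadjusted p were all higher in Δrad3, and their share over all bins was not counted. Input varied between arrays by up to 2.68 in 1 bin, at aat1 (111001 to 112000), and by 2.21 in the bin beside prl11, where WT replicate 3 stood at -2.21. On WT replicate 3, 81.6% of outer probes were well above background in the IP, against 95.0% or more on each of the other 5 arrays.

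The range 29 to 70 kb inward was compared at all 6 chromosome ends, counted from the end of the sequence. At the right end of chromosome I it was counted from the last probe, so distances there are not strictly the same. It held 37 and 21 bins at the left and right ends of chromosome II. The ends of chromosome I held 19 and 40, and those of chromosome III 37 and 41. At the left end of chromosome II the library labelled WT replicate 2 was the lowest array, at -0.69, and at the right ends of chromosomes I, II and III that library stood at 1.21, 1.17 and 2.07. At the left end of chromosome III it stood at 0.48, the highest of the 6 arrays there. At the left end of chromosome I the Δrad3 arrays stood at 0.12, 0.10 and 0.34, and the WT arrays at -0.11, -0.23 and -0.06. As at the left end of chromosome II, the groups did not overlap there and that library was the lowest array. The difference was 0.57 at the left end of chromosome II, against 0.32 at the left end of chromosome I and -0.08 at the right end of chromosome II. Without the library labelled WT replicate 2 the differences were 0.45, 0.27 and 0.33 in the same order. Without it they were 0.63 and 0.97 at the right ends of chromosomes I and III, and 0.12 at the left end of chromosome III. WT replicates 1 and 3, at -0.29 and -0.34, stood lower at the left end of chromosome II than at the 5 other ends, of which the right end of chromosome I was nearest, at -0.18 and -0.31. The left end of chromosome II was thus not the end with the largest difference once that library was set aside. These comparisons are values side by side, with no test.

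**Figure D5:**
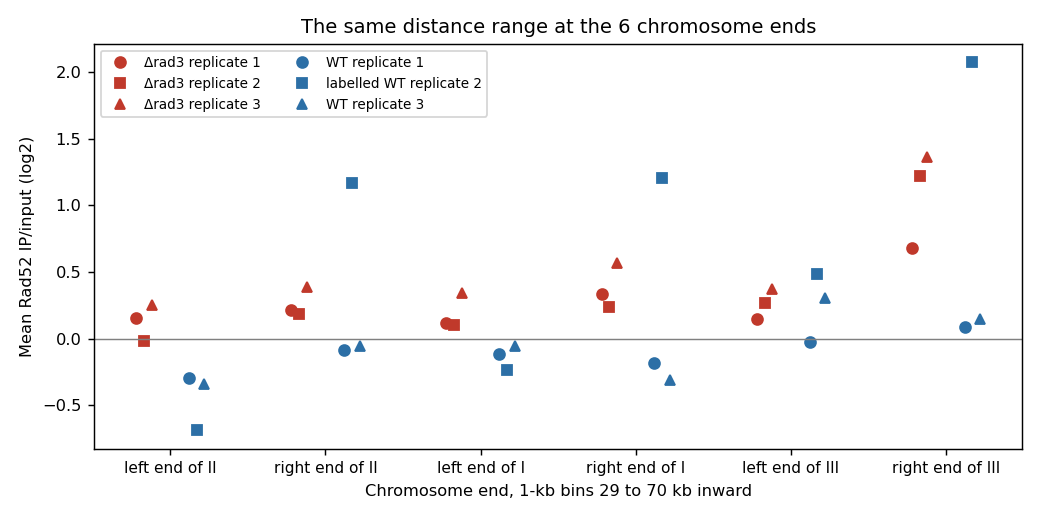
Mean log2 Rad52 IP/input over the bins 29 to 70 kb from each of the 6 chromosome ends, 1 point per array (Δrad3 red at left, WT blue at right of each end). Distance at the right end of chromosome I is counted from the last probe. At the left ends of chromosomes II and I all 3 Δrad3 arrays lie above all 3 WT arrays, and the library labelled WT replicate 2 (blue square) is lowest. That library is highest at the 3 right ends and at the left end of chromosome III.

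Along the 14 windows the arrays of 1 strain were alike in shape and those of different strains less so. The Pearson correlation over windows was 0.82 to 0.87 within Δrad3, 0.74 to 0.85 within WT, and -0.12 to 0.76 between strains. It was 0.74 and 0.85 for the library labelled WT replicate 2 with the other WT arrays, so in this stretch it followed the WT profile, although it lacks rad3 DNA. All these values share the probes and their base composition, and they are descriptions.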

How the data were processed

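Rad52 ChIP-on-chip was measured on 6 arrays, 3 Δrad3 and 3 labelled WT, in S. pombe. The deposited intensity columns were background-subtracted, detrended and linearly dye-normalized by the authors with Agilent Feature Extraction 10.7.3.1, per the file headers and the submitters' processing notes. The extraction protocol named in the headers was a CGH one on slides 1 and 3 and a ChIP one on slide 2. Slide 2 held Δrad3 replicate 2 and the library labelled WT replicate 2, so protocol and slide cannot be told apart. The deposited log10 ratio (red over green) matched the ratio of processed signals within 0.01 for 99.9% of probes or more. Here log2 IP/input (green over red processed signal, no loess or quantile step) was centred on each array's median. Control spots and spots the software flagged as outliers were left out (0 to 39 of the 492 per array). Probes stayed in if 3 or more of the 6 arrays flagged their input as well above background (491 of 492, and 42659 in all), and were averaged in 1-kb bins (2 probes or more), 10-kb windows (3 bins or more) and genes (2 probes or more). Strains were compared with limma 3.58.1 (R 4.3.3) over the whole table, Benjamini-Hochberg adjusted over all features, threshold 0.05, with 4 residual degrees of freedom.

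Per the file headers, same-numbered arrays share a slide and scan. Deviations of same-numbered arrays from their strain means correlated at 0.472, 0.101 and 0.261 over bins, so the slide was also fitted as a block. Arrays of different numbers correlated at -0.3893 to 0.1185, a range that holds the 0.101 of slide 2.

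Coordinates are those of the files (build Spombe:NCBI:Feb2002), and genes, islands and printed sequences are from ASM294v3 (RefSeq). Probe length, which follows base composition, correlated with A+T content at 0.507 at a shift of 2 bp, 0.486 at 0 and at most 0.264 beyond 60 bp, so names hold within a few bases. Genes on chromosome I beyond base 3700000 were not used here.

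The members, lists, tests and alternatives were chosen with earlier results of these data known. Named bins were the 10 highest in each strain, the 10 largest differences each way among bins whose groups do not overlap, and all that passed, and named genes the 5 highest and lowest by difference and the 5 highest by mean in each strain (3 each way for non-coding RNA genes). Alternatives left out each array, added the slide block, or changed background correction, scaling, centring, filters, bin or window size and variance moderation. Figures used matplotlib 3.10.9.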

Additional observations from a re-analysis of the deposited data

How the results depend on the processing

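The number of 1-kb bins higher in Δrad3 was 0 of 135 in limma, 6 with the replicate block (against 0.812% of all bins), 10 with the replicate block and without the library labelled WT replicate 2 (2.3%), 1 with normexp (0.588%) and 5 with arrays scaled to one spread (0.862%). It was 0 without any single array and 0 in the other direction under every setting tried. For windows it was 0 of 14, and 4 with the block and without that library. For genes it was 0 of 101, and 1, SPNCRNA.4570, with the block and without that library (0.158% of all genes) and with scaled arrays (0.366%). In single channels the block let 1 IP window pass, at 50 to 60 kb, and no input window. It changed no other call on strain differences. Input differences gave 0 bins under every setting run for them.

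Enriched bins in Δrad3 numbered 6 (1.86% of all bins were enriched), and 18 with the replicate block (5.63%), 19 with the block and without the library labelled WT replicate 2 (6.28%), 23 with scaled arrays (6.95%), 19 with arrays of one protocol text (6.15%), 2 with trended robust variance (0.564%) and 3 at a mean of at least 1 (0.87%). Leaving out each array gave 1 to 12 (0.265% to 4.81%). In WT they numbered 3 (3.12%), and 6 with the replicate block (6.95%), 5 with the block and without that library (3.45%), 7 with arrays of one protocol text (2.88%), 0 with normexp or trended robust variance (0% each) and 0 at a mean of at least 1 (0.439%). Leaving out each array gave 0 to 10 (0.605% to 7.81%).

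The regional difference of 0.12 was 0.59 over the first 50 kb, 0.35 over the first 100 kb and 0.0283 with arrays of one protocol text. Without each array it ran from 0.09 to 0.17. Leaving out the first 20 kb changes nothing, since no probe lies there. The difference from 29 to 70 kb was 0.57, and 0.33 with normexp. Leaving out the first 50 kb and the stretch from 29 to 70 kb were chosen after seeing the data, as were the block in single channels, the correlations with and without islands and the counts of non-overlapping bins without the library labelled WT replicate 2.

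Small differences changed sign, and none of these passed in limma. The window at 80 to 90 kb (-0.12) became 0.0464 without the library labelled WT replicate 2, 0.0501 with the block as well and 0.0700 with normexp, and ran from -0.253 to 0.0464 without each array. That at 100 to 110 kb (0.04) became -0.0335 without WT replicate 1 and -0.0147 without Δrad3 replicate 3, with 0.120 as the highest without 1 array. With arrays of one protocol text the windows at 110 to 120 and 140 to 150 kb became -0.0286 and -0.0630, and SPNCRNA.4596 became 0.0894. The window at 140 to 150 kb ran from -0.0229 (without WT replicate 1) to 0.0810 without each array. With normexp the windows at 130 to 140 and 150 to 160 kb became 0.135 and 0.107, the bins at 135001 and 149001 became 0.0281 and 0.0565, and urh1 became 0.0222. The cause was not tested. Of 738 comparisons of named bins, windows and genes with an alternative, 699 kept direction and side of the threshold, 25 newly passed and 14 reversed. None of these features passed in the main fit, so keeping the side means still not passing. The alternatives reuse the same arrays, and the bins and genes were picked by their differences on them, so the count is no separate support. Weak IP signal limits the outer stretch most on WT replicate 3.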
